A study of Mus musculus with 6 samples.

Results

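The imprinted genes H19, Igf2, Meg3, Dlk1, Peg3, Mest, Snrpn, Grb10, Plagl1 and Kcnq1ot1 were examined in chromatin accessibility maps of nuclei from neonatal mouse hearts. Every peak of the 6 deposited lists that overlapped the body of 1 of these genes or the 10 kb on either side of it (GENCODE M21, mm10) was collected, together with any imprinting control region inside those windows. Peaks that overlapped by at least 1 bp were merged across libraries, which gave 101 regions at the 10 genes out of 169881 in the genome. Grb10 had 32 of these regions, Kcnq1ot1 15, Plagl1 12, Igf2 11, Mest 10, H19 7, Meg3 and Peg3 5 each, Dlk1 3 and Snrpn 1, and they are numbered from 5′ to 3′ along each gene.

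The maps were made by Omni-ATAC-Seq, in which the Tn5 transposase inserts sequencing adapters into open chromatin, on 50000 nuclei per library from hearts at postnatal day 1 (P1). The 6 libraries formed 3 groups of 2 biological replicates, all from nuclei spun through a 2.2 M sucrose cushion. The paper reports that this cushion alone leaves almost only cardiomyocyte nuclei. It chose the cushion here to keep peaks of other cell types of the Nkx2-5 lineage out of the maps. Input was WT heart nuclei with no step after the cushion. Myc was nuclei of Nkx2-5 Cre/+; R26RSun1-Myc-Egfp/+ hearts captured with a Myc antibody by magnet-assisted nuclei immunoprecipitation (MAN-IP); there, Cre recombination turns on a Myc-tagged nuclear membrane protein in cells that descend from Nkx2-5 expressing progenitors, which give rise to cardiomyocytes, smooth muscle and endothelial cells. PCM1 was WT heart nuclei captured by MAN-IP with an antibody to PCM1, a protein of the cardiomyocyte nuclear envelope. The Cre and tag alleles are present in the Myc hearts and in neither of the other groups, so their part and that of the antibody cannot be told apart.

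At an imprinted gene only the copy from 1 parent is transcribed. The choice is stored as DNA methylation at an imprinting control region, which is laid down in the egg or the sperm and kept in the cells of the offspring. In many clusters the control region is a CpG-rich promoter that is open on the unmethylated copy and closed on the methylated one, and proteins such as ZFP57 hold the methylation while CTCF or YY1 bind the unmethylated DNA. Genes expressed from the father's copy tend to promote growth before birth and those from the mother's copy tend to restrain it, and several of them are active in the fetal heart and fade after birth. A peak here sums both parental copies, which cannot be told apart in these lists.

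Each region was described by 2 measures. The rank percentile orders a peak's -log10 q-value within its own library, with 100 for the strongest peak. The relative height is the number of tags piled up at the summit, recovered from the deposited fold and p-value, divided by the median of that number in the same library over the 48857 regions that had a recovered height in all 6 libraries. That median was 113 and 30 tags for Input replicates 1 and 2, 46 and 47 for those of Myc, and 30 and 29 for those of PCM1. The weakest peak called stood at a relative height of 0.0973 in Input replicate 1 and between 0.128 and 0.20 in the others. Peaks were called against a local background, so the limit at a given site can lie well above these values. A site without a peak is one not called in its library, which does not show that it is closed there. The lists held between 75336 and 131500 peaks.

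Markers of the cell types that the nuclei could hold were compared in the same way. Only start regions with a height in all 6 libraries entered the sums, so a region without a peak in some library was left out. Such regions, at 10 of 12 cardiomyocyte genes, had summed relative heights of 90.1 and 94.8 in Input, 56.3 and 58.1 for Myc and 96.9 and 100.8 for PCM1. Those at 7 of 12 fibroblast genes summed to 8.80 and 7.87, 10.4 and 10.2, and 7.80 and 7.59. Start peaks were called at 12 and 10 of the fibroblast genes in Input, 12 and 12 for Myc and 9 and 9 for PCM1. Regions at 11 of 12 endothelial genes summed to 16.9 and 16.1, 19.2 and 19.5, and 16.6 and 16.4. Those at 8 of 10 smooth muscle and pericyte genes summed to 15.6 and 14.5 in Input, 12.5 and 13.1 for Myc and 17.1 and 17.9 for PCM1, lowest in Myc. The median log2 difference of Myc from Input over these regions was -0.11. Mean start ranks of that set overlapped, at 78.7 and 57.9 in Input, 62.8 and 70.2 for Myc and 63.7 and 53.0 for PCM1. Every marker of these 4 sets had a start peak in at least 1 library, whereas 7 of 8 immune markers, Ptprc among them, had none in any. Regions at 4 of 6 epicardial genes summed to 5.61 and 5.60 in Input, 6.26 and 5.72 for Myc and 4.97 and 4.72 for PCM1. Those at 3 of 6 erythroid genes summed to 3.20 and 2.90, 3.39 and 3.40, and 2.27 and 2.48. The 526 regions taller than 8 times the median were, at their median, 0.47 lower in Myc than in Input on the log2 scale. In Myc, summed heights were thus lower for cardiomyocyte and smooth muscle markers, higher for fibroblast and endothelial markers, and tall peaks were lower. The part of these shifts in the results below was not tested. In a bulk library, fewer nuclei with an open site and a less open site in each nucleus cannot be told apart.

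The control region upstream of H19 and the first intron of Peg3 are known for repeated binding sites, and their letters were read from RefSeq GRCm38.p6 because the peaks described below lie on them. H19 and Peg3 both run on the minus strand, and all sequences below are written on that strand, 5′ to 3′. Upstream of H19, 3 matches to the core CGNGGNGGC of the CTCF sites of this control region lay at -2168, -2623 and -3893 bp from the gene's start, with the 9 letters of the core in capitals. Peaks covered the first in 5 libraries, the second in 4 and the third in 2.
H19 -2168, chr7:142580305-142580325: atgccgCGTGGTGGCagtaca
H19 -2623, chr7:142580760-142580780: ctaccgCGCGGTGGCagcata
H19 -3893, chr7:142582030-142582050: ttgccgCGTGGTGGCagcaaa

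In the first intron of Peg3, a single region of 1703 bp held 7 matches to the YY1 motif CGCCATNTT, all on the strand of the gene and all covered by peaks in the 6 libraries. The 9 letters of the motif are in capitals, and every one of the 7 had C at the variable position.
Peg3 intron, chr7:6728874-6728894: tcctggCGCCATCTTtcctgg
Peg3 intron, chr7:6728733-6728753: ccctgaCGCCATCTTtgctgg
Peg3 intron, chr7:6728445-6728465: atttggCGCCATCTTtgccag
Peg3 intron, chr7:6728396-6728416: tgcagaCGCCATCTTgaatga
Peg3 intron, chr7:6727958-6727978: acctgaCGCCATCTTtgctga
Peg3 intron, chr7:6727839-6727859: cctgggCGCCATCTTtacttg
Peg3 intron, chr7:6727417-6727437: ctctggCGCCATCTTtgttgg
Windows of the same 1703 bp were placed at each of the 169881 regions, on both strands, and 2.42% of them held at least 1 match. Only 8 windows, the one at this Peg3 region among them, held 7 or more, the most being 13. The neighbouring Peg3 region, in the promoter CpG island, held 2 further matches.

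Next, 3 promoters that serve as control regions are shown whole, since they are open in all 6 libraries and their relative heights differ widely. Each runs 300 bases on the strand of the transcript as RefSeq gives it. In Plagl1 and Snrpn the capitals mark the complement GCGGCA of the motif TGCCGC, the core bound by ZFP57, of which each promoter holds 1. In Kcnq1ot1, which holds no TGCCGC here, the capitals mark CCAAT, a box found in many promoters.
Plagl1, chr10:13090582-13090881, plus strand: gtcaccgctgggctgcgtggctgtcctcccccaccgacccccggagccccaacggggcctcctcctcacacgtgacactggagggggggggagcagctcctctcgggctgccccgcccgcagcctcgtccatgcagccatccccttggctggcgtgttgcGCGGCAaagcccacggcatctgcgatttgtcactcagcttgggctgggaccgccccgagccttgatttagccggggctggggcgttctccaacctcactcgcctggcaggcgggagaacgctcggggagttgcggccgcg
Kcnq1ot1, chr7:143296498-143296797, minus strand: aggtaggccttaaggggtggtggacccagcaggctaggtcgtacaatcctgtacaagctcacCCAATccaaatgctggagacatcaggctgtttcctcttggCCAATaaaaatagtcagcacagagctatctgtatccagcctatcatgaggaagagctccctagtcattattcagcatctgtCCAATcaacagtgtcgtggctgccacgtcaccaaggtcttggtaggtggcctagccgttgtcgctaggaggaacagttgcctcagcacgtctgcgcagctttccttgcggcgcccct
Snrpn, chr7:60005150-60005449, minus strand: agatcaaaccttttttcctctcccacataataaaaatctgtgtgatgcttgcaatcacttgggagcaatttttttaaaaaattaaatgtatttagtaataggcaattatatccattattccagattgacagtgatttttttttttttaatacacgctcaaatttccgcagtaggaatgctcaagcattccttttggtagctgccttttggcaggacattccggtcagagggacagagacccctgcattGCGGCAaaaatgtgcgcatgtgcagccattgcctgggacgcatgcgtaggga
The Plagl1 stretch is 70.7% G and C with 26 CpGs, the Kcnq1ot1 stretch 53.3% with 9, and the Snrpn stretch 40.3% with 7. Counting both strands, 11.6% of the 32851 RefSeq mouse promoters hold TGCCGC and 37.4% hold CCAAT, while 3.37% hold 3 or more CCAAT as Kcnq1ot1 does. The CCAAT box was searched after the values at Kcnq1ot1 had been seen. A match describes letters and does not show that a protein is bound.

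The starts of the 10 genes were open in most libraries but ranked below those of other genes with an open start. A peak within 1 kb of an annotated transcript start was present for 10, 10, 10 and 10 genes in the Input and Myc libraries and for 9 and 8 in PCM1 replicates 1 and 2. Among the 30751 genes of the same annotated types (protein coding, lincRNA and antisense), 61.2 and 54.1% had such a peak in Input, 58.6 and 58.3% for Myc and 54.8 and 54.3% for PCM1. It was present in all 6 libraries for 8 of the 10, with a background of 50.1% of these genes, where any annotated start counts. The 10 genes have from 1 start (Kcnq1ot1) to 11 (Meg3 and Plagl1), and the number of starts was not matched. Counting only the 5′ end of the longest gene model, it was 5 of the 10, for which no background was computed. The median rank percentile of the strongest start peak was taken over the 10 genes, with a gene without one placed lowest. It was 85.9 and 70.1 in Input, 77.4 and 81.3 for Myc and 59.4 and 65.3 for PCM1. Over those of the 30751 genes with a start peak, leaving out those without, the median was 90.8 and 86.4, 91.3 and 91.2, and 85.9 and 85.7, higher in every library. For PCM1 these medians are not alike, since genes without a start peak lower only that of the 10 genes.

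The order of the genes at their starts was led by Plagl1 and Kcnq1ot1. Plagl1 had rank percentiles of 97.3 and 95.0 in Input, 93.5 and 94.7 for Myc and 93.0 and 92.3 for PCM1, and Kcnq1ot1 93.6 and 91.5, 93.1 and 94.0, and 92.2 and 89.3. These values overlapped between the neighbours, and so did those of Grb10, Peg3, Mest and Igf2, whose lowest and highest values were 63.7 and 91.0, 50.2 and 96.4, 73.2 and 87.2, and 68.5 and 86.7. H19 ran from 29.7 to 70.1 and Snrpn from 30.6 to 66.8, and these ranges overlapped as well. The neighbours Meg3 and Dlk1 on chromosome 12 came last by the mean of each group, but Meg3 overlapped H19 and Snrpn in Input and Myc. Meg3 had 68.6 and 25 in Input, 38.7 and 58.5 in Myc, 27.5 in PCM1 replicate 1 and no peak in replicate 2, and Dlk1 had 50.2 and 3.94 in Input, 1.54 and 13.8 in Myc and no peak in PCM1.

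**Figure D1:**
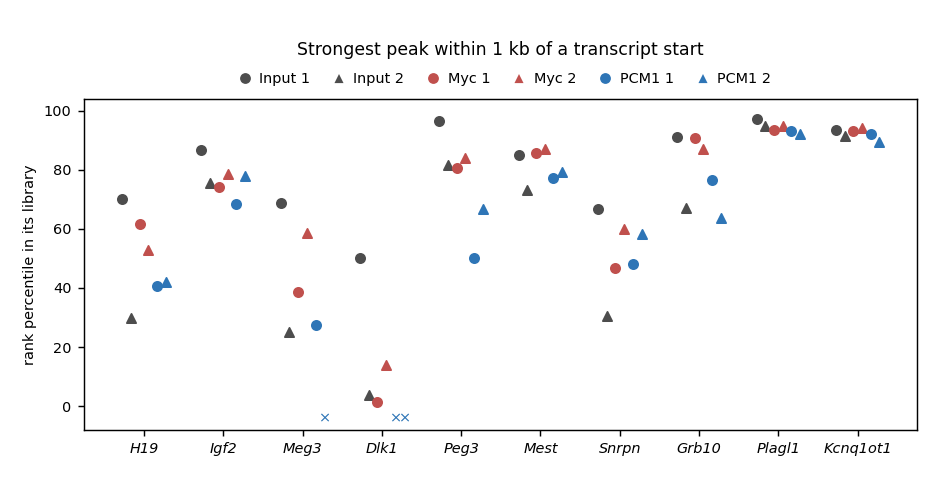
Rank percentile of the strongest peak within 1 kb of a transcript start, for the 10 genes in each of the 6 libraries; a higher value is a stronger peak within that library. Plagl1 and Kcnq1ot1 lie between 89.3 and 97.3, while Dlk1 reaches no more than 50.2 and has no peak in PCM1.

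Among the genes expressed from the father's copy that promote growth, Peg3, which encodes a zinc finger protein, stood out by height. The tall region with the 7 YY1 matches (region 3, chr7:6727362-6729064, summit 1713 bp inside the gene body at chr7:6703892-6730431) had relative heights of 10.5 and 11.7 in Input, 5.33 and 5.28 for Myc and 8.17 and 7.62 for PCM1. The groups did not overlap in any pair, with Input highest and Myc lowest. The 526 regions taller than 8 times the median had the same order at their medians. These were -0.47 for Myc against Input, -0.17 for PCM1 against Input and -0.31 for Myc against PCM1 on the log2 scale. Myc was lower than Input by a log2 difference of -1.06 ± 0.10 (SE, adjusted p = 7.26e-10) and lower than PCM1 by -0.57 ± 0.10 (adjusted p = 3.62e-05), and PCM1 was lower than Input by -0.49 ± 0.10 (adjusted p = 0.00104). In relative height, Myc was 0.478 times Input, and the authors' local background beside this peak was between 21.9 and 31.1 times the genome-wide level. When the authors' fold, which divides by that local background, replaced the height, Myc against Input shrank to -0.47 (adjusted p = 0.342), Myc against PCM1 was -0.61 (adjusted p = 0.0944), and PCM1 against Input turned to 0.13 (adjusted p = 0.848), so that all 3 calls were lost. They were also lost without the mean-variance trend (adjusted p = 0.0615, 0.0636 and 0.183). The last was lost under quantile normalization and without Input replicate 2 (-0.42) as well.

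The start of Peg3 itself was weaker than the intron. The promoter shared with the divergent gene Usp29 (region 1, chr7:6730345-6730630) had a peak in Input replicate 1 and both Myc libraries, at 3.21, 2.35 and 1.79, and in none of the others. In the libraries with a peak the local background there was 29.1, 21.8 and 21.9 times the genome-wide level, so a missing call does not show a lower site. The adjoining region inside the CpG island (region 2, chr7:6729408-6729750) had a peak in all 6, at 4.57 in Input replicate 2, 2.93 and 3.17 for Myc and 2.20 and 2.62 for PCM1. Its height in Input replicate 1 could not be recovered, so it was not tested. Downstream of the gene, the region at the start of Zim1, another imprinted zinc finger gene of the cluster (region 5, chr7:6696156-6696768), stood at 3.99 and 4.60 in Input, 2.48 and 2.81 for Myc and 3.53 and 3.24 for PCM1. Myc was lower there than Input by -0.70 ± 0.15 (adjusted p = 0.000931), a call lost without Input replicate 2 (-0.60, adjusted p = 0.0591), and no other difference at this region passed.

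Plagl1 encodes a zinc finger transcription factor that regulates other imprinted genes. Its promoter region (region 5, chr10:13090384-13091325), shown above, had relative heights of 4.22 and 4.13 in Input, 2.96 and 3.17 for Myc and 2.90 and 2.90 for PCM1. Both immunoprecipitated groups were below Input without overlap, Myc by -0.45 ± 0.14 (adjusted p = 0.0328) and PCM1 by -0.53 ± 0.14 (adjusted p = 0.0142). These calls were fragile: the Myc one was lost without any 1 of the Input or Myc libraries (adjusted p = 0.153 and 0.166 without Input replicates 1 and 2, 0.213 and 0.0913 without Myc replicates 1 and 2), and the PCM1 one without either Input library (0.0994 and 0.104). A region in an intron 49562 bp from the gene's 5′ end (region 8, chr10:13109836-13110322) went another way, with 0.690 and 0.50 in Input, 0.609 and 0.404 for Myc and 0.967 and 1.34 for PCM1. PCM1 was higher than Input there by 0.96 ± 0.32 (adjusted p = 0.0474), and Myc was lower than PCM1 by -1.20 ± 0.32 (adjusted p = 0.00431). The higher PCM1 value rested on single libraries, with an adjusted p of 0.0752, 0.366, 0.0548 and 0.259 without Input replicate 1, Input replicate 2, Myc replicate 1 and PCM1 replicate 2, and the difference between Myc and PCM1 reached 0.0939 without Myc replicate 2 and 0.0591 without PCM1 replicate 2. A start further inside the gene (region 9, chr10:13116786-13117622) was open in all 6 libraries between 0.633 and 1.1, and no comparison there passed. The most upstream start (region 1, chr10:13060749-13061206) had a peak of 0.186 in Input replicate 1 alone.

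Igf2, the insulin-like growth factor of fetal growth, and H19, the long noncoding RNA transcribed from the other parental copy next to it, share enhancers that lie beyond H19. Igf2 (chr7:142650766-142666816) had 3 start regions open in all 6 libraries. The upstream start (region 3, chr7:142666682-142667192) had relative heights of 0.681 and 0.633 in Input, 0.761 and 0.638 for Myc and 0.90 and 1.24 for PCM1, highest in PCM1, and the differences did not pass (PCM1 against Input 0.69 ± 0.30, adjusted p = 0.135). The GC-rich start (region 6, chr7:142659019-142659724), 82% G and C at its summit, was ordered the other way, with 1.94 and 1.77 in Input, 1.46 and 1.62 for Myc and 0.967 and 1.48 for PCM1. PCM1 against Input was -0.63 ± 0.23 there (adjusted p = 0.0655), and the difference passed only without PCM1 replicate 2 (-0.94, adjusted p = 0.00849). The third (region 7, chr7:142657356-142657883) ran from 0.587 to 1.1 with no call, and 3 further start regions (regions 4, 5 and 8, chr7:142660944-142661269, chr7:142660533-142660845 and chr7:142656058-142656454) had peaks in 2, 3 and 5 libraries.

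The strongest region of the Igf2 window lay downstream, 21666 bp from the 5′ end on the side of H19 (region 11, chr7:142644903-142645549). Its relative heights were 3.09 and 3.27 in Input, 1.76 and 1.51 for Myc and 2.1 and 2.59 for PCM1. The 3 groups did not overlap, and Myc was the lowest. Myc was below Input by -0.96 ± 0.18 (adjusted p = 0.000183) and below PCM1 by -0.51 ± 0.18 (adjusted p = 0.0265), and the second call was lost without Myc replicate 2 (adjusted p = 0.192) or without PCM1 replicate 2 (0.203).

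At H19 (chr7:142575529-142578143) the start had overlapping heights in the 3 groups. The region at the start (region 4, chr7:142578047-142578686) had relative heights of 0.956 and 0.767 in Input, 1.04 and 0.830 for Myc and 0.90 and 0.966 for PCM1, and all groups overlapped. The difference of Myc from Input was 0.12 with a 95% interval from -0.44 to 0.68, so a higher or a lower start in Myc within those bounds was not distinguishable. The region over the first 2 CTCF matches (region 3, chr7:142580179-142580839) had 0.611 and 0.70 in Input, 0.826 and 0.681 in Myc, 0.60 in PCM1 replicate 1 and no peak in PCM1 replicate 2. The region over the third (region 2, chr7:142581679-142582098) was called at 0.398 in Input replicate 1 and 0.826 in Myc replicate 1, in no other library. A region at -8950 bp from the start (region 1, chr7:142586898-142587257) had peaks in both Input libraries (0.283 and 0.667) and both PCM1 libraries (0.567 and 0.759) and in neither Myc library.

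Dlk1, a transmembrane protein related to Notch ligands, and Meg3, the long noncoding RNA of the same cluster on chromosome 12, had the weakest starts. The Dlk1 start region (region 3, chr12:109453032-109453672) had relative heights of 0.301 and 0.267 in Input and 0.174 and 0.213 in Myc, and no peak in PCM1, where the weakest peak called stood at 0.167 and 0.172. The Myc values were close to that limit. The Meg3 start (region 3, chr12:109540727-109541157) had 0.381 in Input replicate 1, 0.370 and 0.383 in Myc and 0.33 in PCM1 replicate 1, and the region just inside the gene (region 4, chr12:109542848-109543257) had 0.566 and 0.433 in Input, 0.348 and 0.468 in Myc and no peak in PCM1. No region of Dlk1 or Meg3 was present in all 6 libraries, so none of their 8 regions was tested.

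Mest, an enzyme-like protein expressed from the father's copy, was open at its internal starts in all 6 libraries. The region over the CpG-rich start (region 5, chr6:30737832-30738446) had relative heights of 1.19 and 1.20 in Input, 1.37 and 1.21 for Myc and 0.967 and 0.966 for PCM1. The one just upstream (region 4, chr6:30736820-30737508) had 1.44 and 1.5, 1.87 and 1.89, and 1.5 and 1.59, with both Myc libraries highest. No comparison at either passed, the largest difference being 0.42 between Myc and PCM1 at the first (95% interval -0.08 to 0.91, adjusted p = 0.209). At the 5′ end of the longest model (region 2, chr6:30723324-30723731) only Input replicate 1 and PCM1 replicate 1 had a peak, at 0.168 and 0.267.

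Snrpn encodes a protein of the splicing machinery and starts at the control region of the Prader-Willi cluster. Its 1 region (region 1, chr7:60004183-60005323) lay on the start it shares with Snurf, 135073 bp into the longest gene model, and had relative heights of 0.478 and 0.40 in Input, 0.413 and 0.553 for Myc and 0.433 and 0.552 for PCM1. All groups overlapped, and the 3 differences lay between -0.03 and 0.16 with 95% limits that reached from -0.73 to 0.86. With 1 region in a window of 177725 bp, Snrpn had the fewest regions per length of the 10 genes, 0.0563 per 10 kb, where H19 had 3.1.

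**Figure D2:**
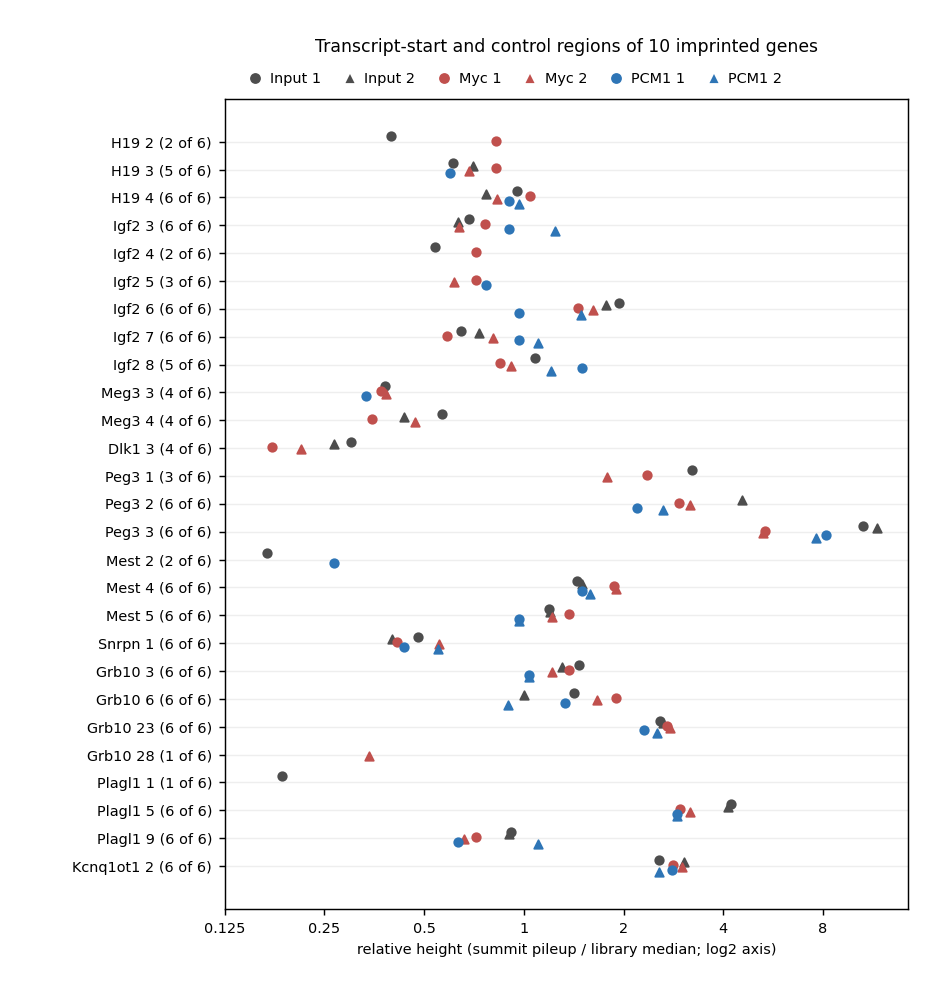
Relative height (summit tags divided by the library's median, log2 axis) of the regions at transcript starts and at the H19 and Peg3 control regions, 1 row per region with its number and the number of libraries with a peak; circles are replicate 1 and triangles replicate 2. The Kcnq1ot1 points lie between 2.55 and 3.03 in all groups, whereas at Plagl1 region 5 the Myc and PCM1 points, at or under 3.17, lie below those of Input, at 4.13 and 4.22.

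Kcnq1ot1 is a long noncoding RNA that starts inside an intron of Kcnq1, runs antisense to it, and silences the genes of its cluster on the father's copy. Its promoter is the control region of that cluster. The region there (region 2, chr7:143296228-143297044), shown above, had relative heights of 2.55 and 3.03 in Input, 2.83 and 3.0 for Myc and 2.80 and 2.55 for PCM1. The 3 groups lay close together, and no comparison passed: Myc against Input was 0.07 (95% interval -0.26 to 0.39), PCM1 against Input -0.06 (-0.38 to 0.27) and Myc against PCM1 0.12 (-0.20 to 0.45). The 3 ZFP57 matches of its CpG island lay outside the peaks of all libraries, 808 bp and more into the transcript.

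Along the body of Kcnq1ot1 (chr7:143203458-143296549), which also lies within Kcnq1 so that the peaks cannot be assigned to 1 of them, 1 region was called. At region 4 (chr7:143283420-143283961), 12794 bp from the start, the relative heights were 0.655 and 0.80 in Input, 0.413 and 0.298 for Myc and 0.80 and 0.897 for PCM1. Both Myc libraries were below all others. Myc was lower than PCM1 by -1.27 ± 0.32 (adjusted p = 0.00289) and lower than Input by -1.05 ± 0.32 (adjusted p = 0.0263). Without Myc replicate 2 the adjusted p rose to 0.0562 and 0.221, and the second was lost without Input replicate 1 (0.0676) or 2 (0.25) as well. Near the far end of the transcript, region 14 (chr7:143210675-143211244) had 1.66 and 1.53 in Input, 0.891 and 1.68 for Myc and 1.17 and 1.34 for PCM1, and its Myc libraries differed more from each other than the groups did.

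Grb10 encodes an adaptor that binds the insulin and IGF1 receptors and restrains growth, and it is expressed from the mother's copy in most tissues and from the father's copy in neurons, by an internal start. It spans chr11:11930508-12038683 and had 13 regions in all 6 libraries, the most of the 10 genes. The main start (region 3, chr11:12036828-12037941) had relative heights of 1.47 and 1.3 in Input, 1.37 and 1.21 for Myc and 1.03 and 1.03 for PCM1, and no comparison passed. The internal start, a CpG island that serves as the control region (region 6, chr11:12025484-12026578), had 1.42 and 1.00 in Input, 1.89 and 1.66 for Myc and 1.33 and 0.897 for PCM1, with both Myc libraries above the other 4. Myc was higher than PCM1 by 0.70 ± 0.24 (adjusted p = 0.0291), a call lost without Myc replicate 1, Myc replicate 2 or PCM1 replicate 2 (adjusted p = 0.204, 0.0766 and 0.265), and Myc against Input was 0.57 ± 0.24 (adjusted p = 0.117). A further start, towards the 3′ end of the gene (region 23, chr11:11956945-11957617), stood between 2.3 and 2.77 in the 6 libraries with no call, and region 28 (chr11:11937539-11937743) had a peak in Myc replicate 2 only.

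The introns of Grb10 carried differences in both directions. The strongest region (region 19, chr11:11965638-11966554), 72672 bp from the 5′ end, had relative heights of 4.54 and 4.87 in Input, 2.93 and 3.17 for Myc and 5.30 and 5.59 for PCM1. Myc was the lowest, below PCM1 by -0.84 ± 0.13 (adjusted p = 6.37e-06) and below Input by -0.62 ± 0.13 (adjusted p = 0.000798). Closer to the start, 65155 bp from the 5′ end, region 17 (chr11:11973297-11973885) showed the opposite order, with 1.6 and 1.77 in Input, 1.85 and 2.28 for Myc and 1.07 and 0.897 for PCM1. Myc was higher than PCM1 there by 1.07 ± 0.22 (adjusted p = 0.000279), and PCM1 was lower than Input by -0.78 ± 0.22 (adjusted p = 0.016). The second was lost without Input replicate 1, Input replicate 2 or PCM1 replicate 2 (adjusted p = 0.0645, 0.174 and 0.0675).

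A further 2 intronic regions of Grb10 were named by their adjusted p. At region 21 (chr11:11961971-11962307) the relative heights were 1.84 and 2.07 in Input, 1.63 and 1.62 for Myc and 2.90 and 2.86 for PCM1, with PCM1 above all others. Myc was lower than PCM1 by -0.83 ± 0.18 (adjusted p = 0.000631), and PCM1 was higher than Input by 0.56 ± 0.18 (adjusted p = 0.0384), which was lost without either Input or either PCM1 library (adjusted p = 0.223, 0.119, 0.101 and 0.0862). At region 11 (chr11:11997026-11997491) they were 1.37 and 2.23 in Input, 0.913 and 0.809 for Myc and 1.43 and 1.24 for PCM1. Myc was lower than Input by -1.03 ± 0.25 (adjusted p = 0.00389), a call lost without Input replicate 2 (0.26) or Myc replicate 2 (0.0534). One region was present in both Input libraries and in no other (region 8, chr11:12010102-12010459, 0.354 and 0.40), a pattern that 1.08% of all regions showed.

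**Figure D3:**
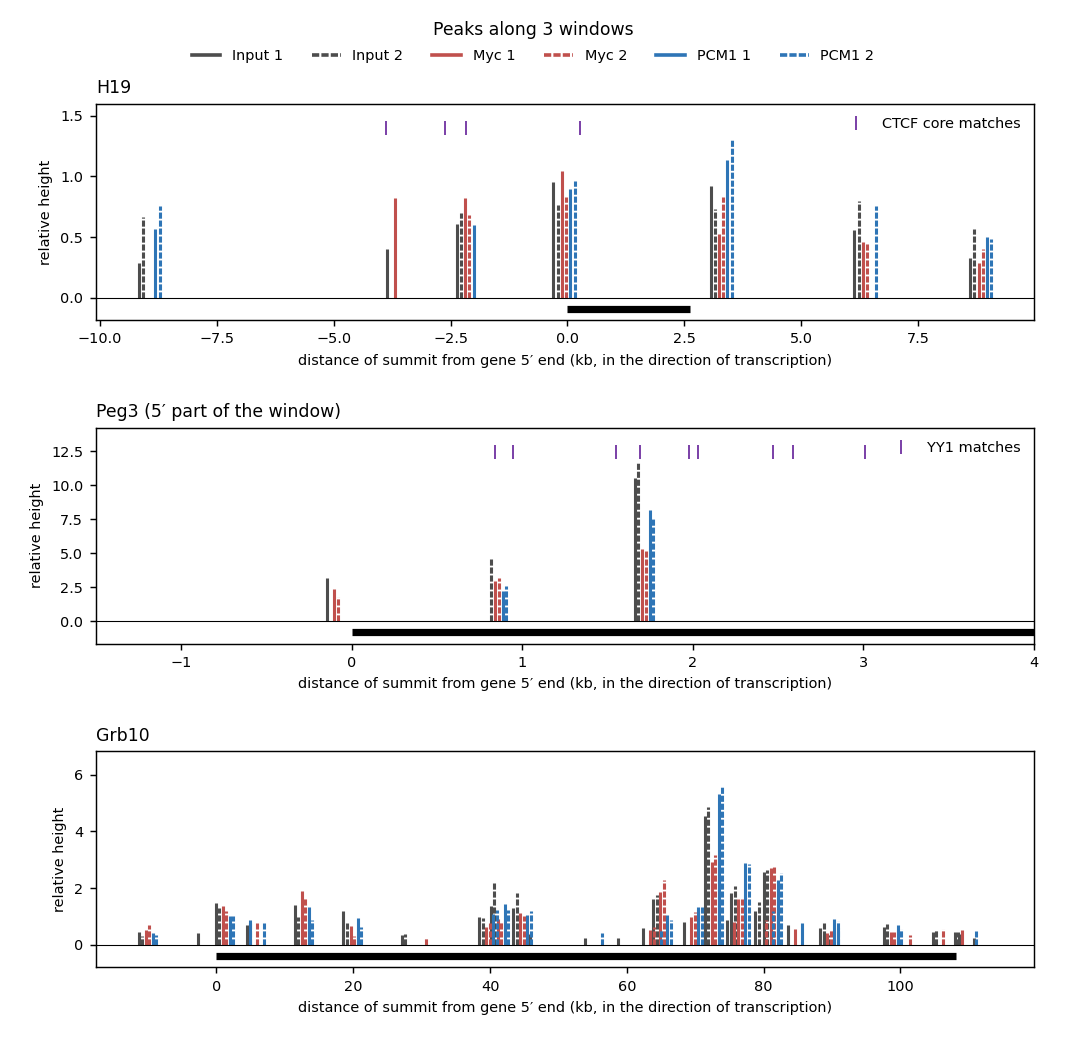
Relative height of each peak in the windows of H19, Peg3 (its 5′ end) and Grb10 against the distance of the summit from the 5′ end of the gene in kb, with the 6 libraries set side by side at each region, the gene body as a black bar, and CTCF and YY1 matches as ticks. In the Peg3 panel the tall region under the YY1 matches reaches 11.7 in Input and 5.33 in Myc, above its neighbours at the start; Input replicate 1 has no recovered height in the region before it.

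Across the 101 regions, 35 were present in all 6 libraries (background 28.8% of all regions) and 24 in 1 library only (background 30.4%). The latter were 8 in Input replicate 1, 1 in Input replicate 2, 5 and 4 in the Myc replicates, and 5 and 1 in the PCM1 replicates, with relative heights from 0.168 to 0.913. A further 4 regions were present in both Input and both Myc libraries and in neither PCM1 library (background 2.26%): the Dlk1 start, the Meg3 region just inside the gene, and regions 7053 and 32508 bp into Kcnq1ot1. The single region with Input and PCM1 peaks but none in Myc (background 0.268%) was the one far upstream of H19. None was present in both Myc libraries alone (background 1.84%), in both PCM1 libraries alone (0.254%), or in all 4 immunoprecipitated libraries without Input (0.104%). Summits lay in an intron in 44 regions, in an exon in 20, and outside the gene in 37, of which 19 were upstream and 18 downstream. Within 1 kb of a start, 14 of 24 regions were present in all 6 libraries, and elsewhere 21 of 77.

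**Figure D4:**
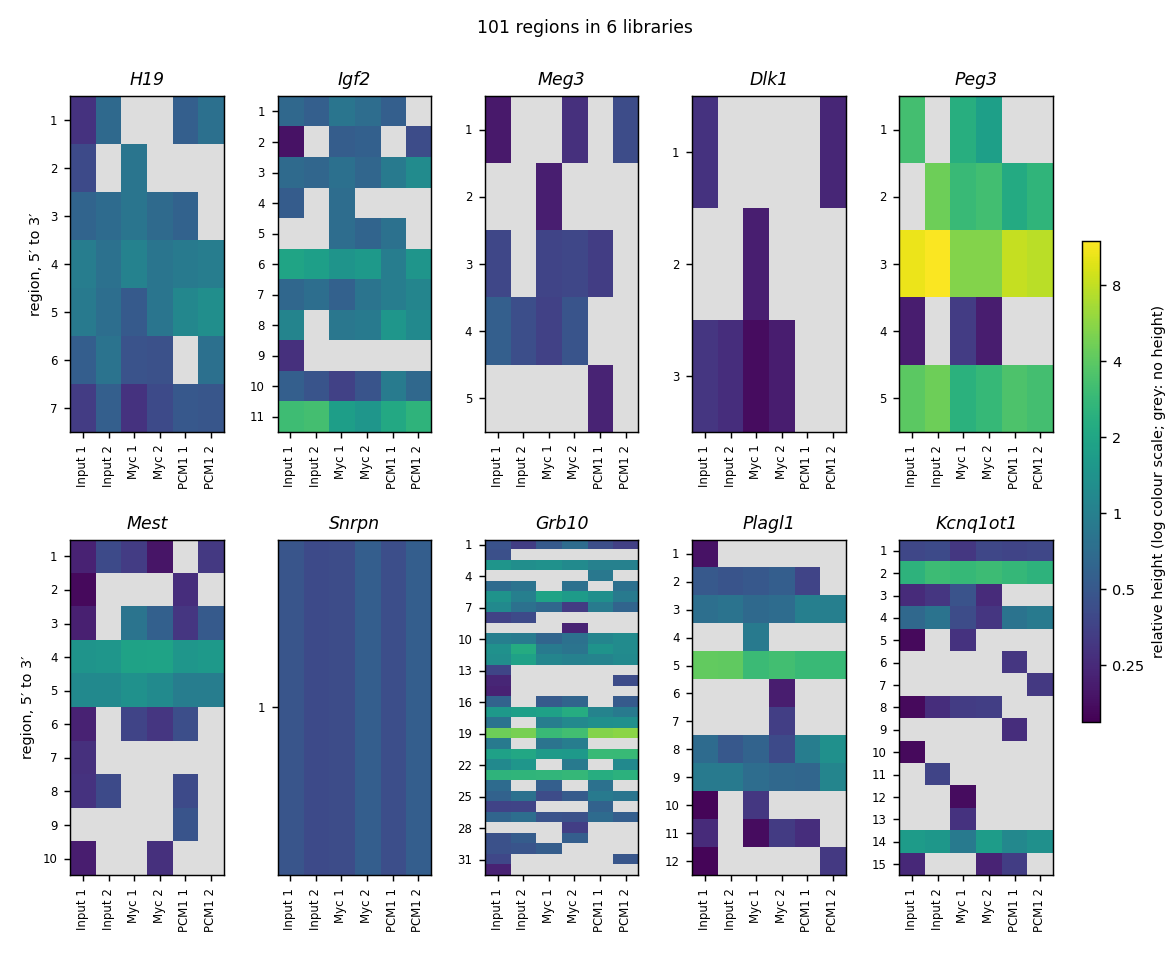
Relative height (colour, log scale) of the 101 regions of the 10 genes, 1 panel per gene with regions numbered from 5′ to 3′ and 1 column per library; grey is a library with no peak or no recovered height. The tallest cells are those of Peg3 region 3, up to 11.7 in Input replicate 2, and Dlk1 and Meg3 have no region filled in all 6 columns.

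The comparison of Myc with Input asked which sites differ between nuclei captured by the Nkx2-5 lineage tag and nuclei taken from the cushion alone. Of the 34 regions with a height in all 6 libraries, 8 passed an adjusted p of 0.05 by limma, all lower in Myc (background 13.3% of the 48857 regions in either direction, 9.14% lower and 4.18% higher). Before adjustment, 10 had a p under 0.05. The 8 that passed after adjustment were 1 region each of Igf2, Plagl1 and Kcnq1ot1, 2 of Peg3 and 3 of Grb10. Both Myc libraries were above both Input libraries at 6 regions and below at 16 (background 26.5 and 30.1%). The median difference over the 34 was -0.30, where that over all regions tested was -0.02.

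PCM1 against Input, the comparison for nuclei captured by the cardiomyocyte mark, gave 5 calls (background 10.8%), 2 higher in PCM1 (2.88%) and 3 lower (7.93%). Plagl1 had 1 in each direction, Grb10 1 in each direction, and Peg3 1 lower. Both PCM1 libraries were above both Input libraries at 10 regions and below at 12 (background 22.6 and 29.2%), and the median difference was -0.06, beside -0.04 over all regions.

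Myc against PCM1, which sets the lineage tag against the cardiomyocyte mark, gave 12 calls (background 28.9%), 2 higher in Myc (15.1%) and 10 lower (13.7%). Both higher calls were in Grb10, at the internal start and in the intron. The 10 lower ones were 1 at H19, 2 at Igf2, 1 at Peg3, 4 at Grb10, 1 at Plagl1 and 1 at Kcnq1ot1. Both Myc libraries were above both PCM1 libraries at 9 regions and below at 17 (background 31.7 and 31.1%), and the median difference was -0.41, beside -0.00 over all regions. The 3 comparisons share libraries and are given side by side only.

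**Figure D5:**
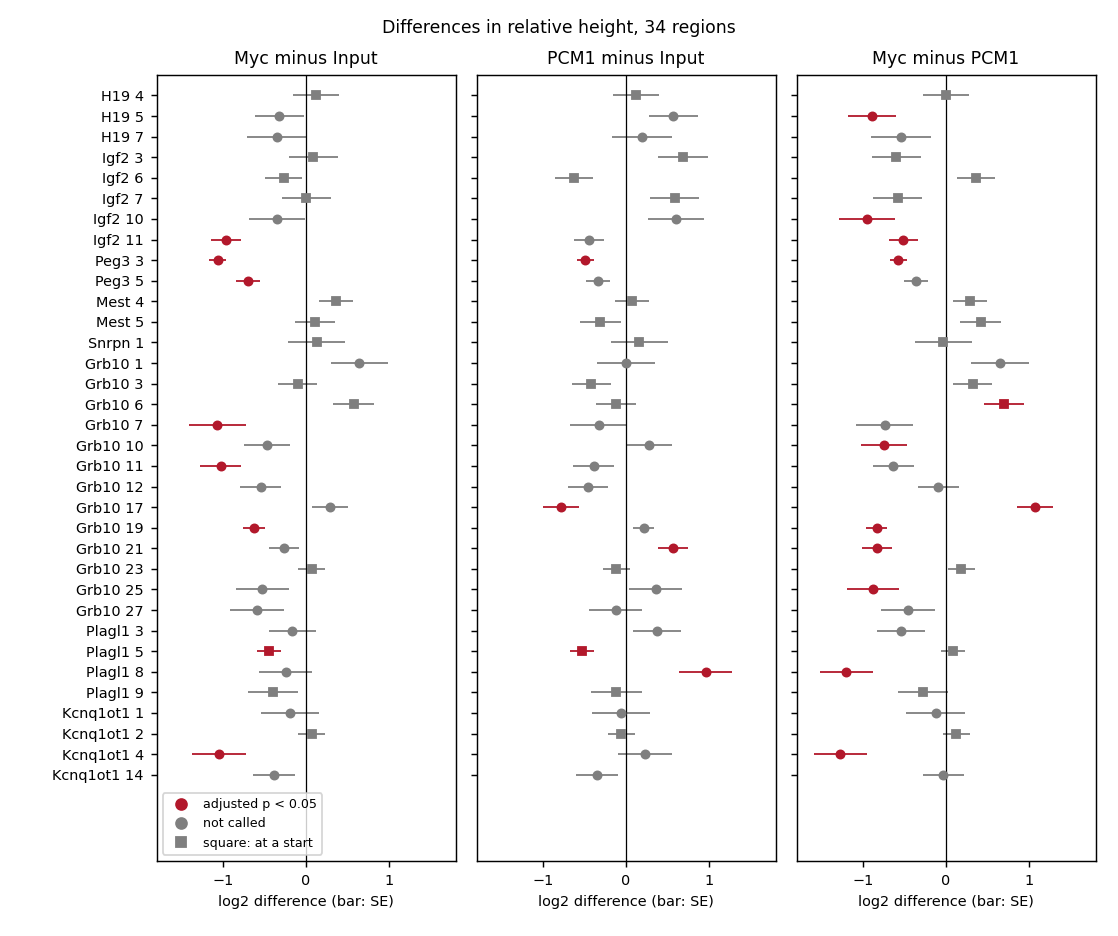
Log2 difference in relative height with its standard error for the 34 tested regions in the comparisons of Myc with Input, PCM1 with Input and Myc with PCM1; red points passed an adjusted p of 0.05, and squares are regions at a start. All 8 red points in the comparison of Myc with Input lie below 0.

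Most calls lay away from the starts. Of 13 tested regions within 1 kb of a start of their own gene, 1 was called in each comparison, while 7, 4 and 11 of the 21 others were called in Myc against Input, PCM1 against Input and Myc against PCM1. Over all regions the balance was the other way, with 18.3, 19.1 and 40.2% called near a start and 10.8, 6.66 and 23.2% elsewhere. The Zim1 start in the Peg3 window was counted among the others. Median differences at the starts were 0.07, -0.12 and 0.12, and elsewhere -0.47, -0.00 and -0.57. Over all regions the medians were 0.05, -0.16 and 0.20 near a start and -0.05, 0.04 and -0.11 elsewhere. Grb10 alone held 13 of the 34 tested regions, only 3 of them at a start, so it weighs heavily in the values elsewhere. In all, 25 calls fell on 16 regions of 6 genes, and H19, Igf2 and Grb10 held the 5 regions not described one by one, each called once with an adjusted p from 0.0195 to 0.036. Snrpn and Mest had tested regions and no call.

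The calls depended on the measure and on how the spread was modelled. When the authors' fold replaced the height, 3 of the 25 calls kept direction and significance, all in Myc against PCM1: Grb10 region 17 (higher in Myc), the Plagl1 intron and the Kcnq1ot1 body. The fold is another quantity, and differences in it were smaller at several regions, with Myc against Input at -0.44 instead of -0.96 at Igf2 region 11 and -0.30 instead of -0.62 at Grb10 region 19. Without the mean-variance trend, 8 were kept, again all in Myc against PCM1, and none against Input. Grb10 region 17 was the only one to keep its call of Myc against PCM1 in all 11 alternatives, with an adjusted p between 9.5e-05 and 0.0213.

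The 34 regions varied among the libraries about as much as others. The highest of the 6 relative heights was a median of 1.89 times the lowest, beside 1.84 over all regions tested, with a range from 1.19 at the Kcnq1ot1 promoter to 3.74, and 10 of the 34 stayed under 1.5. Among starts, the internal Grb10 start had the widest range over the libraries, 1.08 on the log2 scale. The genes whose start regions were most like it over the 6 libraries, by Euclidean distance of log2 relative height, included Scrn2 (0.233) and Vps54 (0.266).

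The start regions of other imprinted genes were called in both directions. Of 38 such genes, 29 had a start peak in all 6 libraries, and 4, Mirg, Ndn, Rian and Rtl1, had none in any. Their 40 tested start regions gave 3 calls higher and 3 lower in Myc against Input, 1 and 4 in PCM1 against Input, and 6 and 5 in Myc against PCM1, with median differences of 0.05, -0.05 and 0.07. Over all regions near a start, 18.3, 19.1 and 40.2% were called in either direction, so these counts do not exceed the background. The list includes Usp29 and Zim1, which lie in the Peg3 window, and the Zim1 region is Peg3 region 5, already counted above. The 5 genes with the smallest adjusted p were Inpp5f, Blcap, Airn, Gnas and Zim1. Inpp5f, a phosphoinositide phosphatase gene, had 1 such start region at chr7:128610906-128611897. Its relative heights were 8.04 and 9.30 in Input, 4.15 and 4.91 for Myc and 6.13 and 6.07 for PCM1, the same order of groups as the Peg3 intron (Myc against Input -0.94 ± 0.11, adjusted p = 1.81e-07). That order was also the one of the tall regions of the whole genome at their medians, so it is not particular to imprinted genes. Whether the start in this region is an imprinted one was not tested. Airn, the noncoding RNA that silences the Igf2r cluster, had a region lower in Myc than in PCM1 (-0.99 ± 0.21, adjusted p = 0.00047), while Blcap (1.09 ± 0.23, adjusted p = 0.000422) and Gnas, the gene of the stimulatory G protein alpha subunit (0.81 ± 0.18, adjusted p = 0.000803), were higher.

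Of 15 genes that lay down, keep or read the imprint, 13 had a start peak in all 6 libraries, and Dppa3, which acts in the egg, had none in any. Their 18 tested regions gave 3 calls higher and 3 lower in Myc against Input, 0 and 2 in PCM1 against Input, and 7 and 0 in Myc against PCM1, with medians of 0.12, -0.26 and 0.24. At starts over all regions, 18.3, 19.1 and 40.2% were called and the medians were 0.05, -0.16 and 0.20. The count in Myc against PCM1 was thus near the background and that in PCM1 against Input below it. The count in Myc against Input was above it, with as many calls higher as lower. With 18 regions, these shares were not tested.

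Sequence features were counted at the summits and set beside those of other regions. In the 300 bp at the summit, 13 of the 24 start regions met the CpG-island criteria of over 50% G and C and an observed to expected CpG ratio over 0.6, beside 44.2% of all start regions. The ZFP57 core TGCCGC, searched on both strands, was present in 8 of 24 start regions (17.1% of all start regions) and in 12 of 101 overall (6.47%). The CTCF core CGNGGNGGC was present in 6 of 101 (3.53%) and the YY1 motif CGCCATNTT in 2 (0.757%), both in Peg3. Over the whole CpG islands at the control regions, TGCCGC occurred 10 times at Mest, 7 at Peg3, 6 at Plagl1, 5 at Snrpn, 4 at the internal start of Grb10 and 3 at Kcnq1ot1. Per kb, these ran from 1.75 at Kcnq1ot1 to 10.3 at Mest. The island at the main start of Grb10, not among the control regions, held 5 (2.78 per kb).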

How the data were processed

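Reads were trimmed by the authors (fastq-mcf) and aligned to mm10 (Bowtie2 2.3.3.1). The authors then marked duplicates with Picard 2.2.1, removed blacklisted regions with bedtools 2.7.1, shifted alignments for Tn5, and called peaks per library with MACS2 2.1.0.20160309 at a q-value threshold of 0.05 (versions per the submitters' processing notes). Each deposited peak carries the authors' fold over the local background (a ratio with a pseudocount of 1), the authors' -log10 p-value, their -log10 q-value, and a score, which the authors set to the -log10 q-value multiplied by 10. Reads were not used here.

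The summit pileup and its background were solved from the fold and p-value and came out whole within 0.02 for between 99.9977 and 100% of peaks; 4 were not recovered. The most frequent background, a measure of depth, was 3.957 and 1.024 tags for Input, 1.441 and 1.436 for Myc, and 0.977 and 0.903 for PCM1. Log2 pileups centred on each library's median were compared with limma 3.58.1 (R 4.3.3, mean-variance trend, all 3 groups in 1 fit) over 48857 regions with Benjamini-Hochberg adjustment. A region seen in fewer libraries was not tested, and 34 of the 101 were. With 2 libraries a group, an exact permutation test cannot go below p = 0.333, so none was run. On simulated data for Myc against Input over 48857 regions, 52 of 100 changes of 2-fold and 12 of 100 of 1.5-fold were called, with 0 false calls. The simulation changed only those regions, far fewer than were called in the data, and drew its noise from 1 model. Its count of false calls therefore does not carry over to the calls given here.

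Windows reached 10 kb beyond each gene, and start peaks lay within 1 kb of a transcript start. RefSeq promoters matched 9 of the 10 genes (19 promoters, GRCm38.p6). Regions named were start regions, the strongest of each window, the 10 with the smallest adjusted p, those of 1 group only, and control regions. The genes, lists and marker sets were chosen with earlier results of these data known. Replicates are separate biological samples per the labels. Of the 3 genes with the start region most like that of Grb10, 1 is not reported here. Python 3.11.15 was used for all other steps. Alternatives are given in the closing section.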

Additional observations from a re-analysis of the deposited data

How the results depend on the processing

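Counts of calls at the 10 genes depended on the measure, the spread model and single libraries. Myc against Input went from 8 to 0 with the authors' fold and to 0 without the mean-variance trend, and between 3 and 8 with 1 library left out (5 without Input replicate 1, 3 without Input replicate 2, 4 without Myc replicate 2). PCM1 against Input went from 5 to 0, 0 and, under quantile normalization, 2, and between 0 and 5 with 1 library left out (1 and 0 without Input replicates 1 and 2, 3 without PCM1 replicate 2). Myc against PCM1 went from 12 to 4 with the fold, and between 6 and 12 with 1 library left out, the 6 without Myc replicate 2. The fold also turned PCM1 against Input at the Peg3 intron to 0.13. With start peaks counted at the 5′ end of the longest gene model alone, the genes with one fell to 6 in Input replicate 2, 5 in PCM1 replicate 2 and 5 in all libraries. The mean start rank over the 10 genes went in Myc from 68.8 to 58.7 (ranked by fold), 58.6 (equal numbers of peaks) and 64.7 (starts within 200 bp), and in PCM1 from 57.1 to 48.8, 54.5 and 49.1. A gene without a start peak entered this mean as 0. Over all regions, the called numbers for Myc against Input, PCM1 against Input and Myc against PCM1 were 6507, 5281 and 14114, against 193, 278 and 4069 with the fold and 25, 18 and 8656 without the trend; under quantile normalization the share higher rose from 31.4 to 41.3% and from 26.7 to 41.0% in the comparisons with Input and was 51.6 instead of 52.4% in Myc against PCM1. Of the 25 calls at the 10 genes, 21 were kept under quantile normalization, and 25 at a q-value of 0.01 and with the replicate block, where the counts stayed at 8, 5 and 12. Those lost under quantile normalization were PCM1 against Input at the Peg3 intron and at Plagl1 regions 5 and 8, and Myc against Input at Plagl1 region 5. Same-numbered libraries did not deviate together (r = 0.0076, -0.0041 and 0.0058), so the block adds no pairing. Depth limits the weakest peak called, and the Dlk1 heights lie near that limit.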
